A study of Mus musculus with 13 samples.

Results

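The genes described are 10 members of the transforming growth factor beta (TGF-beta) pathway, chosen by name from a matrix of 23211 mouse gene IDs: the ligands Tgfb1, Tgfb2 and Tgfb3, the receptors Tgfbr1, Tgfbr2 and Tgfbr3, the signal transducer Smad3, the feedback inhibitors Smad7 and Pmepa1, and the secreted target Tgfbi. All 10 were found in the matrix and all 10 passed the filter on low counts in each comparison. RNA was sequenced from cells that were sorted, per the labels, as carrying the leptin receptor, out of tissue around tibia implants of mice. The 7 fibrous libraries came from fibrous tissue around implants labelled PMMA and the 6 bone libraries from bone around implants labelled Pressfit, so tissue and implant cannot be told apart. The sources used here do not give strain, age, sex or genotype, or whether each library came from its own animals. The p-values below thus speak only to the variation from library to library, part of which may be technical.

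Library names divided the series further. The XY9274 name series held 4 libraries (fibrous 6 and 7, bone 5 and 6) and the L002 name series held 9. Within L002, 3 names held the token Lin (fibrous 5, bone 3 and 4), 5 held the token plus (fibrous 2, 3 and 4, bone 1 and 2) and that of fibrous 1 held neither. The plus names other than that of bone 1 held LepR before plus, and the XY9274 names held Lepr.Pos. The Lin names and that of fibrous 1 held no LepR, although all titles read LepR+. The labels do not say what Lin means in a name. Totals ran from 18056208 to 44302166 counts per fibrous library and from 16162321 to 43217004 per bone library. No pair of libraries within a tissue held identical counts.

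RNA of the sort marker was not found at a high level in every library. Lepr, the gene of the sort marker, lay under 5 normalised counts per 1e6 counts (CPM) in 5 libraries, namely fibrous 1 and 5 and bone 3, 4 and 5, which include all 3 Lin-named libraries. The summed level of 10 marrow stromal markers was 17.0 to 39.0 CPM in Lin-named libraries and 996 to 12420 CPM in plus-named ones. Erythroid markers summed to 235500 to 593500 CPM in Lin-named libraries and 27810 to 76110 CPM in plus-named ones. Bone 5 carried 90990 CPM of neutrophil markers and 10980 CPM of B lineage markers. In bulk RNA, fewer cells of a type and less RNA per cell cannot be told apart.

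TGF-beta ligands are secreted in a latent form, held by latent TGF-beta binding proteins and matrix, and are abundant in bone, where osteoclasts can release them during resorption. Active ligand binds the receptor kinase TGFBR2, which recruits and phosphorylates TGFBR1, and TGFBR1 then phosphorylates SMAD2 and SMAD3, which enter the nucleus with SMAD4. TGFBR3, also called betaglycan, is a co-receptor that presents ligand and is needed above all for TGF-beta2 binding, while Smad7 and Pmepa1 are induced by the signal and restrain it.

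The promoters of Tgfb1 and Tgfb2 are shown, the 2 ligands for which a window was found. Any part of promoter sequence in their RNA levels was not tested. Each window runs from 250 bases before to 50 bases after the RefSeq transcription start, 5′ to 3′ on the strand of the gene, on build GRCm38.p6. That of Tgfb1 is chr7:25686752-25687051 on the plus strand and that of Tgfb2 is chr1:186705940-186706239 on the minus strand. Capitals mark GGGCGG, the GC box, read on either strand (CCGCCC on the other), and TATAAA, the TATA box.
Tgfb1: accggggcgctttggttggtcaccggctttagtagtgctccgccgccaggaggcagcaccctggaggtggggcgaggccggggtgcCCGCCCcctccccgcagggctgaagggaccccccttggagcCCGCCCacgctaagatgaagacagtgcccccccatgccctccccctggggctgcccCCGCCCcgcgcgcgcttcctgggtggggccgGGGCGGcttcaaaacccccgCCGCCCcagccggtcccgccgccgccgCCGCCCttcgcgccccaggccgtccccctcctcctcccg
Tgfb2: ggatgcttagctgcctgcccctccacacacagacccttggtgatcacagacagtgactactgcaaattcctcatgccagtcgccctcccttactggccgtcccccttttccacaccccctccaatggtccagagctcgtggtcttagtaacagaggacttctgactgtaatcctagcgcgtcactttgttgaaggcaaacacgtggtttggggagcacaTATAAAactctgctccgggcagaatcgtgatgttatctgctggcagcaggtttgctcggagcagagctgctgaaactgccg
The Tgfb1 window held 77.0% G and C and 6 GC boxes, with no TATAAA. The Tgfb2 window held 54.3% G and C and no GC box, and had 1 TATAAA, which began 31 bases before the start. Of 32851 mouse promoter windows of this length, 35.7% held GGGCGG and 13.6% held TATAAA on either strand. The CAGA-type Smad element, searched as CAGACA on both strands, was present in the Tgfb2 window and in 1 of the 2 Tgfbr1 windows, against 21.04% of all windows. The palindromic Smad element GTCTAGAC, found in 0.213% of all windows, was not in any window of a member. Windows were also held for Tgfbr2, Smad3 and Tgfbi, and those of Tgfb3, Tgfbr3, Smad7 and Pmepa1 were not used here. Such matches describe letters in a window and show no binding.

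Tgfb1 (ENSMUSG00000002603, chromosome 7, 25687002 to 25705077, plus strand, mm10) was the ligand RNA counted in every library, at 28.1 CPM or more. Its lowest, median and highest normalised CPM were 46.3, 64.2 and 82.5 in fibrous libraries, and 28.1, 41.1 and 127.6 in bone libraries. The bone library at 127.6 CPM was bone 5, and the range of the fibrous libraries lay within that of the bone libraries. Over all 13 libraries the coefficient of variation of Tgfb1 was 42.8%, the lowest of the 10 members, and 30.5% of the 13294 genes tested varied less.

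Tgfb2 (ENSMUSG00000039239, chromosome 1, 186622792 to 186705989, minus strand), the ligand that relies most on betaglycan, and Tgfb3 (ENSMUSG00000021253, chromosome 12, 86056745 to 86079041, minus strand) varied far more. The lowest, median and highest Tgfb2 values were 3.83, 14.5 and 24.6 CPM in fibrous libraries and 0, 2.97 and 22.4 CPM in bone libraries. The value of 0 was in bone 6, where a count of 0 allows up to 0.0918 CPM from counting error alone. Tgfb3 had a lowest, median and highest value of 0, 17.8 and 37.4 CPM in fibrous libraries and 0.0644, 3.88 and 29.6 CPM in bone libraries. Fibrous 1 had no Tgfb3 count, which allows up to 0.117 CPM. Bone 1 and 2 lay within the fibrous range of Tgfb2 and the other 4 bone libraries lay below it, while all bone values of Tgfb3 lay within the fibrous range. Exons of Tgfb2 and Tgfb3 overlap unlisted genes of the opposite strand by 124 to 257 bases, and the sources used here do not say whether counting used strand.

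**Figure D1:**
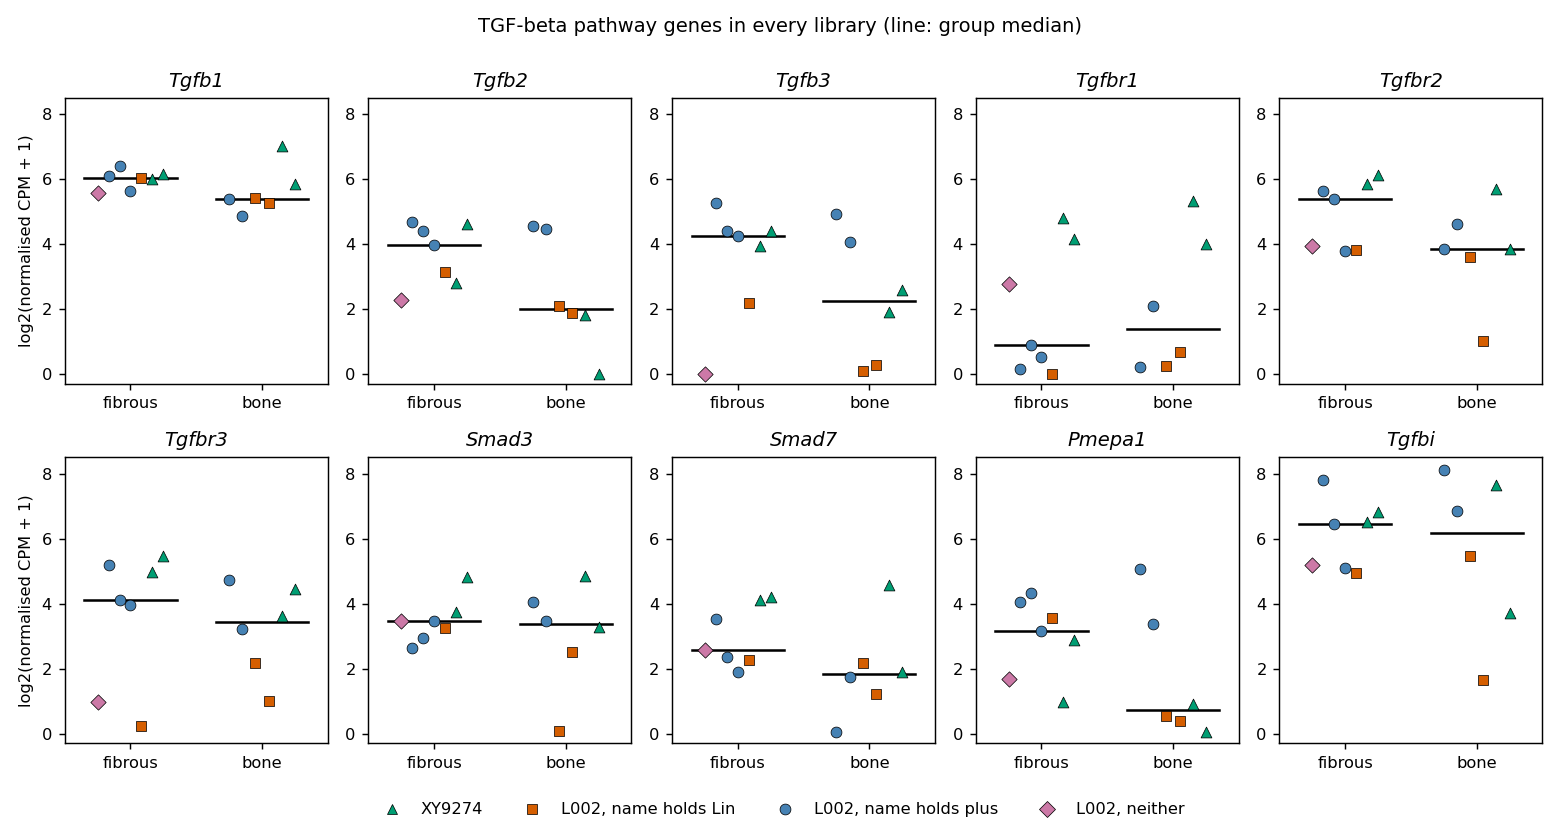
Each panel plots log2(normalised CPM + 1) of 1 gene, with 7 fibrous libraries left and 6 bone libraries right, 1 point a library, coloured by name series and token, and a line at the group median. Tgfb1 points sit close together, between 28.1 and 127.6 CPM, while Tgfb3 points run from 0 to 37.4 CPM.

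Among the receptors, Tgfbr2 (ENSMUSG00000032440, chromosome 9, 116084293 to 116175360, minus strand), the kinase that binds ligand, was counted in all libraries. It had a lowest, median and highest value of 12.8, 40.9 and 69.1 CPM in fibrous libraries and 1.00, 13.5 and 51.1 CPM in bone libraries. The lowest value was that of bone 4, a Lin-named library. Tgfbr3 (ENSMUSG00000029287, chromosome 5, 107106570 to 107289629, minus strand) had 0.185, 16.2 and 43.0 CPM in fibrous libraries and 1.00, 9.82 and 25.4 CPM in bone libraries, in the same order of lowest, median and highest. Fibrous 5, again Lin-named, gave the lowest value, and the tissues overlapped for both receptors.

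Tgfbr1 (ENSMUSG00000007613, chromosome 4, 47353222 to 47414931, plus strand), the kinase that phosphorylates the receptor Smads, was close to undetected in most libraries. Its lowest, median and highest values were 0, 0.845 and 26.6 CPM in fibrous libraries and 0.158, 1.94 and 38.6 CPM in bone libraries. Per kilobase of exon it had the lowest median of the 10 members, 0.129 CPM per kb, and its coefficient of variation of 148.6% exceeded that of 93.6% of all genes tested. The high values were those of the XY9274 libraries in both tissues.

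Smad3 (ENSMUSG00000032402, chromosome 9, 63646767 to 63757994, minus strand), the transducer, had a lowest, median and highest value of 5.21, 9.96 and 27.3 CPM in fibrous libraries and 0.0644, 9.38 and 27.5 CPM in bone libraries. Its low value was 1 count in bone 3. Smad7 (ENSMUSG00000025880), which blocks TGFBR1 and directs it to degradation, had 2.72, 4.96 and 17.4 CPM in fibrous libraries and 0.0394, 2.56 and 22.7 CPM in bone libraries. Its highest bone value was again in bone 5, and its lowest was 1 count in bone 1. Pmepa1 (ENSMUSG00000038400, chromosome 2, 173224458 to 173276533, minus strand), which sequesters receptor Smads, had 0.968, 7.96 and 18.9 CPM in fibrous libraries and 0.0306, 0.665 and 32.7 CPM in bone libraries. The bone values were widely split, with bone 1 and 2 at 32.7 and 9.24 CPM and the other bone libraries under 1 CPM.

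Tgfbi (ENSMUSG00000035493, chromosome 13, 56609523 to 56639562, plus strand), an extracellular matrix protein first known as a TGF-beta induced gene, had the highest level per kilobase of exon, with a median of 22.7 CPM per kb over the 13 libraries. Its lowest, median and highest values were 29.8, 85.4 and 219.8 CPM in fibrous libraries and 2.11, 78.7 and 273 CPM in bone libraries. On the same per-kilobase scale Tgfb1 followed with a median of 11.3 CPM per kb, then Tgfb3 with 4.24 and Tgfbr3 with 2.21. Smad3 at 1.80, Tgfbr2 at 1.75, Tgfb2 at 1.35 and Pmepa1 at 1.29 CPM per kb were close to each other, with Smad7 at 0.831 and Tgfbr1 below them. Neighbours in this order overlapped in their ranges over libraries throughout.

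The design text names the comparison of cells from fibrous tissue with those from bone, and none of the 10 members passed that test. With edgeR's quasi-likelihood test over all 13 libraries and name series as a term, 0 of 10 members passed an adjusted p of 0.05, as did 0% of the 13294 genes tested, with a smallest adjusted p of 0.873. At an unadjusted p of 0.05, 636 genes and 0 members passed. DESeq2 called 1.72% of the genes to which it gave an adjusted p and 0 members, with no adjusted p for Tgfbr1, and limma called 0 genes. Values of the tissues overlapped for all 10 members, and they separated for 0.0677% of all genes.

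The fibrous over bone log2 fold change was above 0 for 9 of 10 members, with a median of 0.78, beside 51.9% above 0 and a median of 0.026 over all genes. The largest was that of Smad7 at 1.18 (standard error, SE, 0.81, edgeR adjusted p = 0.873), and the smallest p was that of Tgfbr2 at 1.04 (SE 0.60, adjusted p = 0.873). Tgfb2 had 1.09 (SE 1.09) and Tgfb3 0.96 (SE 1.31), so that neither was clearly larger than its error. Tgfbi, at −0.31 (SE 0.85), was the only member below 0. Tgfbr1 had a lower mean in fibrous than in bone libraries, although its fold change, fitted with name series as a term, was above 0. The signs of Tgfbr1, Tgfbr3, Smad3 and Tgfbi, whose fold changes were within 1 SE of 0, changed under other settings, as did that of Tgfb1 in the XY9274 series alone.

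Without the 5 libraries low in Lepr, no member passed the threshold either, and the Tgfb1 and Tgfbr2 log2 fold changes were 0.69 (SE 0.29, edgeR adjusted p = 0.774) and 1.36 (SE 0.53, adjusted p = 0.774). Within the L002 series, Tgfb1 was at 46.3 to 82.5 CPM in 5 fibrous libraries and 28.1 to 41.4 CPM in 4 bone libraries. It was the only member of 10 whose L002 tissues did not overlap, and 1.5% of all genes were separated in that direction. Its log2 fold change was 0.70 (SE 0.26, edgeR adjusted p = 0.924) there and −0.56 in the XY9274 series alone, where fibrous 6 and 7 had 62.3 and 69.6 CPM and bone 5 and 6 had 127.6 and 56.8 CPM. The series-by-tissue interaction was −1.23 for Tgfb1 (SE 0.49, unadjusted p = 0.0293, adjusted p = 1 in edgeR), and 0% of genes passed that test. Without bone 5 this interaction was −0.52 (unadjusted p = 0.291 in edgeR).

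Within the XY9274 series, Tgfb2, Tgfb3, Tgfbr2, Tgfbr3 and Pmepa1 were higher in both fibrous libraries than in both bone libraries, which makes 5 of 10 members beside 17.5% of all genes. Tgfb3 was at 14.3 and 20.02 CPM in fibrous 6 and 7 and at 2.74 and 5.02 CPM in bone 5 and 6. Tgfb2 was at 5.98 and 23.3 CPM in the fibrous and at 2.51 and 0 CPM in the bone libraries of this series. With 2 libraries a tissue, no member passed edgeR's adjusted threshold. Bone 5 had the highest pan-leukocyte marker sum of the 13 libraries, 6833 CPM, with Ptprc, the CD45 gene, at 441 CPM, and the part of this in the result was not tested.

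**Figure D2:**
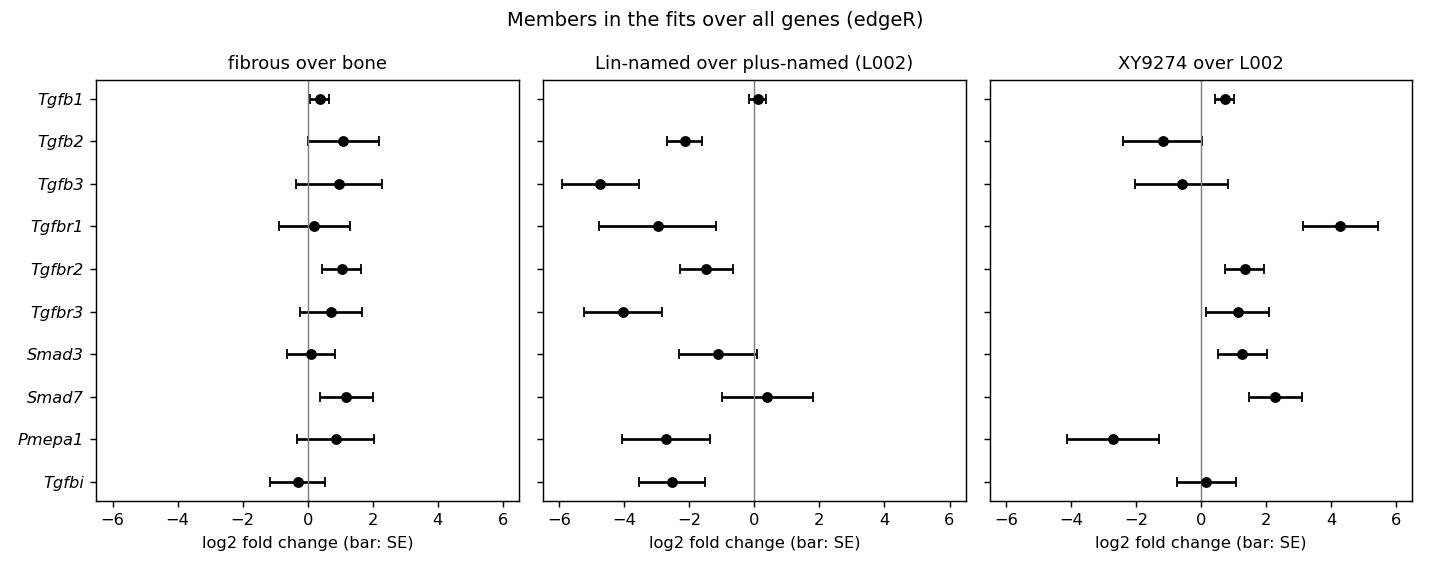
The 3 panels plot the log2 fold change of each member with its standard error as a bar, for fibrous over bone (left), Lin-named over plus-named L002 libraries (middle) and XY9274 over L002 (right). Fold changes in the left panel lie between −0.31 and 1.18, and those of Tgfb3 and Tgfbr3 in the middle panel are at −4.73 and −4.04.

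The Lin token in the library names divided the members in another way. Tgfb2, Tgfb3 and Tgfbr3 were lower in all 3 Lin-named libraries than in all 5 plus-named libraries, whereas the Tgfb1 values of these groups overlapped. Tgfb3 was at 3.57, 0.0644 and 0.201 CPM in Lin-named libraries (fibrous 5, bone 3 and bone 4). It was at 37.4, 20.1, 17.8, 29.6 and 15.8 CPM in plus-named libraries (fibrous 2, 3 and 4, bone 1 and 2). In bone 3 and bone 4 the level rested on 1 and 2 counts.

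Tgfb2 was at 7.82, 3.22 and 2.71 CPM in these Lin-named libraries, and at 24.6, 20.3, 14.5, 22.4 and 21.2 CPM in the plus-named ones. Tgfbr3 was at 0.185, 3.54 and 1.00 CPM in Lin-named libraries and at 35.4, 16.2, 14.5, 25.4 and 8.25 CPM in plus-named ones. For both genes the plus-named libraries of both tissues were all higher. Tgfb1 was at 64.2, 41.4 and 37.7 CPM in Lin-named libraries and at 67.9, 82.5, 48.6, 40.9 and 28.1 CPM in plus-named ones, and the groups overlapped.

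The Lin-named over plus-named log2 fold change was −4.73 for Tgfb3 (SE 1.19, edgeR adjusted p = 0.0617), −4.04 for Tgfbr3 (SE 1.21, adjusted p = 0.0954) and −2.15 for Tgfb2 (SE 0.55, adjusted p = 0.0618). None passed the adjusted threshold, and 0 of 10 members were called beside 5.84% of 16803 genes. At an unadjusted p of 0.05, 4 of 10 members and 3830 genes passed, the fourth member being Tgfbi at −2.54 (SE 1.02, adjusted p = 0.190). The 3 members whose groups did not overlap stand beside 10.8% of all genes that were lower without overlap. Fibrous 1 alone formed 1 token group, so a gene counted in a single library could pass the filter and enter these shares. With Lin-named against all other L002 libraries, 13710 genes passed the filter. DESeq2 called 5 of 10 members, all lower in Lin-named libraries, where it called 26.4% of genes in all and 16.4% as lower. These were Tgfb3 (adjusted p = 1.85e-05), Tgfb2 (adjusted p = 3.17e-05), Tgfbr3 (adjusted p = 9.50e-05), Tgfbi (adjusted p = 0.0207) and Pmepa1 (adjusted p = 0.0406), all from DESeq2. In edgeR, Tgfb2 passed without fibrous 1 (adjusted p = 0.0460), where 1097 of only 13450 genes tested were called. Tgfb3 and Pmepa1 passed in edgeR without fibrous 5 (adjusted p = 0.0230 and 0.0412), where 826 of 16621 genes were called. No member passed when any other single library was left out.

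The other members followed less closely. Pmepa1 was at 10.7, 0.451 and 0.301 CPM in Lin-named libraries and averaged 16.9 ± 9.91 CPM in plus-named ones (SD, n = 5). The value of fibrous 5 lay within the plus-named range, and the log2 fold change was −2.73 (SE 1.36, edgeR adjusted p = 0.279). Tgfbi averaged 25.1 ± 20.97 CPM in Lin-named libraries (SD, n = 3) and 145 ± 98.8 CPM in plus-named ones (SD, n = 5). Smad7 averaged 2.85 ± 1.34 CPM in Lin-named libraries and 3.96 ± 3.95 CPM in plus-named ones (SD, n = 3 and 5). Its log2 fold change, fitted with tissue as a term, had the opposite sign, at 0.40 (SE 1.39, edgeR adjusted p = 0.889). All 10 members had a lower mean in Lin-named libraries, and 8 had a fitted log2 fold change below 0, with a median of −2.35 beside −0.23 over all genes. The signs of mean and fit differed for Smad7 and for Tgfb1, so that neither has a settled direction.

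Names of 2 pairs of libraries share a further token, and their Tgfb1 and Tgfb3 values are repeated here. Since Tgfb3 was lower in every Lin-named than in every plus-named library, any such pair must show that difference. The pairs thus add no support of their own. Fibrous 5, Lin-named, and fibrous 2, plus-named, had 64.2 and 67.9 CPM of Tgfb1 and 3.57 and 37.4 CPM of Tgfb3. Bone 4, Lin-named, and bone 2, plus-named, had 37.7 and 28.1 CPM of Tgfb1 and 0.201 and 15.8 CPM of Tgfb3. Whether the libraries of such a pair came from the same sample is not given in the sources used here.

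The make-up of the ligand RNA differed accordingly. Of the summed level of the 3 ligands per kilobase of exon, Tgfb1 made up 84.1%, 93.5% and 93.4% in Lin-named libraries. It made up 46.8%, 63.4%, 55.4%, 39.2% and 40.04% in plus-named libraries, so that the groups were far apart. Tgfb3 averaged 2.64% ± 3.76 of the sum in Lin-named libraries (SD, n = 3) and 33.5% ± 7.43 in plus-named ones (SD, n = 5). Fibrous 1, whose name holds neither token and whose Lepr was 0.469 CPM, had a Tgfb1 share of 93.3%. In the XY9274 series the Tgfb1 share was 70.1% and 58.2% in fibrous 6 and 7 and 95.3% and 88.4% in bone 5 and 6. Tgfb1 had the highest level per kilobase of the ligands in every library except bone 1, where Tgfb3 had 42.2% of the sum. These shares were looked at after the members' values had been seen and were not tested.

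**Figure D3:**
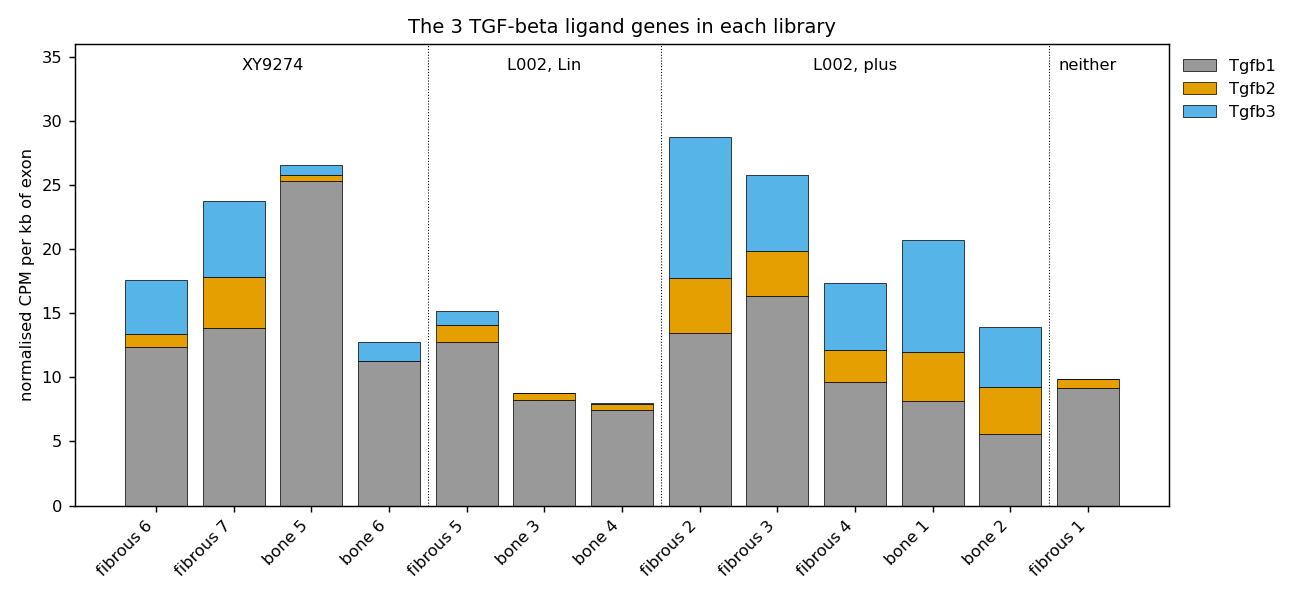
Stacked bars give the normalised CPM per kb of exon of Tgfb1, Tgfb2 and Tgfb3 in each of the 13 libraries, ordered by name series and token. The Tgfb1 segment is similar in Lin-named and plus-named libraries, while Tgfb2 and Tgfb3 add 36.6% to 60.8% of the sum in plus-named and 6.55% to 15.9% in Lin-named libraries.

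Summed markers of osteoblasts and chondrocytes separated by the Lin token, while those of platelets and leukocytes overlapped. Osteoblast markers summed to 648 to 3728 CPM in Lin-named libraries and 13620 to 50260 CPM in plus-named ones, and chondrocyte markers to 407 to 2055 CPM in Lin-named and 8814 to 40890 CPM in plus-named libraries. Cxcl12, the chemokine by which marrow stromal cells retain haematopoietic cells, was at 5.48 to 16.4 CPM in Lin-named libraries and 627 to 7965 CPM in plus-named ones. Platelet markers summed to 153 to 1416 CPM in Lin-named and 22.9 to 390 CPM in plus-named libraries, platelets being a known store of TGF-beta1 protein. The pan-leukocyte sums were 762 to 1578 CPM in Lin-named and 203 to 1627 CPM in plus-named libraries. Neutrophil sums overlapped too, at 10320 to 32180 CPM in Lin-named and 746.5 to 36370 CPM in plus-named libraries. The part of these cells in the result was not tested. Over all 13 libraries, the 5 with Lepr under 5 CPM had at most 32.7 CPM of Cxcl12 and at most 3.57 CPM of Tgfb3. All others had at least 376 CPM of Cxcl12 and at least 5.02 CPM of Tgfb3. Tgfb2 and Tgfbr3 did not separate in this way. Tgfb2 was at 7.82 CPM in fibrous 5, low in Lepr, and at 0 CPM in bone 6. Tgfbr3 was at 11.4 CPM in bone 5, low in Lepr, and at 8.25 CPM in bone 2. The libraries low in Lepr include the Lin-named ones, whose low Tgfb3 is given above, so the split is in part the same result. This split was not tested. The share of all genes that separate so is not given, so it marks no trait of Tgfb3.

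**Figure D4:**
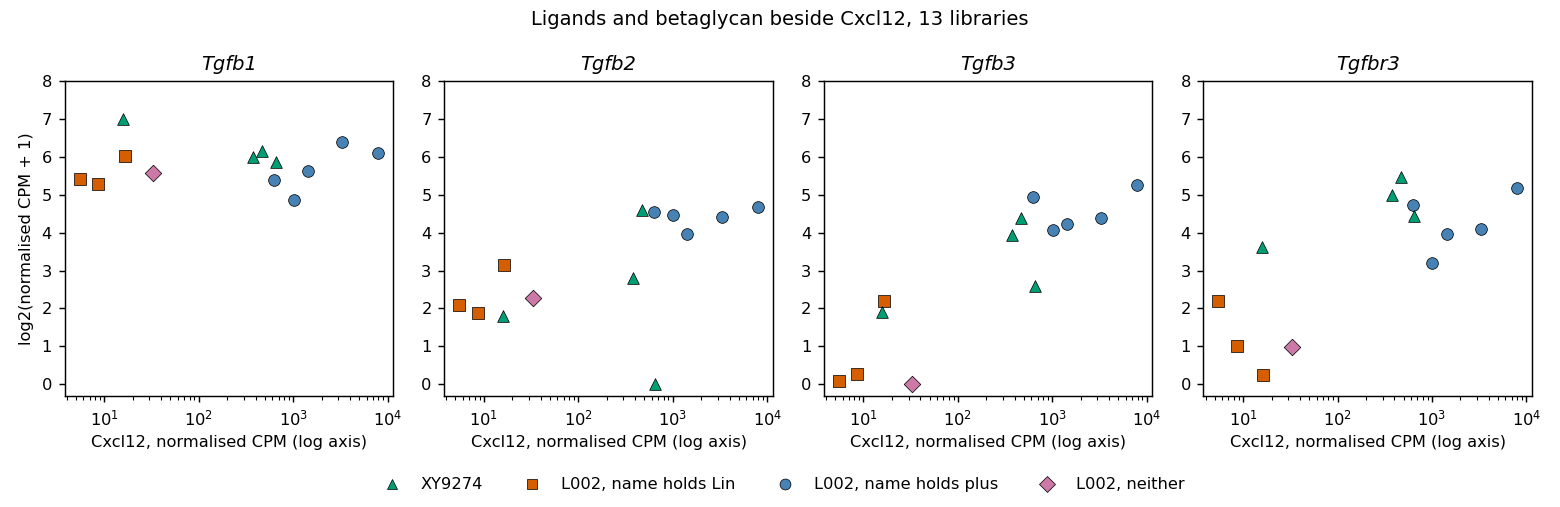
Each panel plots log2(normalised CPM + 1) of Tgfb1, Tgfb2, Tgfb3 or Tgfbr3 against normalised CPM of Cxcl12 on a log axis, 1 point for each of 13 libraries. Tgfb1 is at a similar height across the axis, and Tgfb3 is at most 3.57 CPM in the 5 libraries at the left and at least 5.02 CPM at the right. Values of Tgfb2 and Tgfbr3 overlap between left and right. The share of all genes that separate as Tgfb3 does is not given.

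The name series themselves differed in Tgfbr1. It was at 26.6 and 16.8 CPM in the fibrous and 38.6 and 15.1 CPM in the bone libraries of XY9274. In the L002 series its lowest, median and highest values were 0, 0.446 and 5.78 CPM. Tgfbr1 was the only member of 10 whose series did not overlap, beside 5.05% of genes that were higher without overlap. Its XY9274 over L002 log2 fold change was 4.29 (SE 1.15, unadjusted p = 0.00261, edgeR adjusted p = 0.0702), and no member was called beside 2.16% of genes. Without fibrous 1, the L002 library with the highest Tgfbr1 at 5.78 CPM, its edgeR adjusted p was 0.0276, where 241 of 13073 genes were called. No member passed when any other single library was left out.

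Smad7 averaged 14.8 ± 8.49 CPM in XY9274 libraries (SD, n = 4) and 3.70 ± 2.96 CPM in L002 libraries (SD, n = 9). Its log2 fold change was 2.28 (SE 0.82, edgeR adjusted p = 0.140), and it was the 1 member that DESeq2 called (adjusted p = 0.0282), beside 15.1% of genes and with no adjusted p for Tgfbr1. With limma, 3 of 10 members were called beside 22.2% of genes, namely Tgfbr1 (adjusted p = 0.000823), Smad7 (adjusted p = 0.0124) and Tgfbr2 (adjusted p = 0.0245), all higher in XY9274. Tgfb1 had a log2 fold change of 0.73 (SE 0.29, edgeR adjusted p = 0.167) and Tgfbr2 one of 1.34 (SE 0.61, adjusted p = 0.213). Pmepa1 lay on the other side at −2.71 (SE 1.42, adjusted p = 0.275). The L002 series includes 3 Lin-named libraries, a token absent from XY9274 names, and this fit held no token term. Tgfbr2 averaged 47.6 CPM in XY9274, 19.8 in L002, 27.7 in plus-named and 8.40 CPM in Lin-named libraries. Smad7 averaged 3.96 CPM in plus-named and 2.85 CPM in Lin-named libraries. Pan-leukocyte markers summed to 881 to 6833 CPM in XY9274 and 203 to 1627 CPM in L002 libraries, and erythroid markers to 1819 to 76650 CPM in XY9274 and 27810 to 593500 CPM in L002. Their part in these differences was not tested.

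Around the members stand 20 genes listed under latency and activation of the ligands, of which 18 were tested. Between Lin-named and plus-named libraries edgeR called 7 of the 18 as lower and 0 as higher, where 3.29% of all genes were called as lower and 2.55% as higher. The median log2 fold change was −3.53 beside −0.23 over all genes. The small proteoglycans Bgn and Fmod, which bind TGF-beta in matrix, averaged 76.8 ± 79.1 and 130 ± 91.7 CPM in Lin-named libraries, and 1100 ± 411 and 1498 ± 718 CPM in plus-named ones (SD, n = 3 and 5). Their log2 fold changes were −3.91 (SE 0.71, edgeR adjusted p = 0.0278) and −3.52 (SE 0.79, adjusted p = 0.0441). Ltbp3, a latent TGF-beta binding protein, was at 0.0616 to 0.451 CPM in Lin-named and 1.99 to 100.8 CPM in plus-named libraries (adjusted p = 0.0341 in edgeR). Ltbp2, of the same family by name, Fbn1, the fibrillin that anchors latent complexes, Itgb5, an integrin subunit, and Mmp14, a membrane protease, were also lower. What these genes do to the ligands in these cells was not tested. The count of 7 depended on single libraries, with 0 without fibrous 2, fibrous 3, bone 3 or bone 4, 1 without bone 1, 4 without bone 2 and at most 8. DESeq2 called 14 of 19 as lower, beside 16.4% of all genes, and limma called 0, beside 4.05% of all genes in either direction.

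Of 11 accessory receptors and adaptors, edgeR called 1 as higher and 1 as lower, beside 5.84% of all genes called in either direction. DESeq2 called 1 as higher and 5 as lower, beside 26.4% of genes, and limma called the same genes as edgeR, Strap and Cd109. Cd109, a co-receptor that inhibits TGF-beta signalling, was at 0 to 0.123 CPM in Lin-named and 17.5 to 40.9 CPM in plus-named libraries (edgeR adjusted p = 0.0121). Strap, an adaptor that binds the receptors with Smad7, averaged 372 ± 27.8 CPM in Lin-named and 254 ± 10.8 CPM in plus-named libraries (SD, n = 3 and 5), a log2 fold change of 0.58 (SE 0.12, adjusted p = 0.0359 in edgeR). Cd109 passed without any one of the 9 libraries (edgeR adjusted p = 0.0111 to 0.0491). Strap no longer passed when any of the Lin-named libraries, fibrous 2, fibrous 3, bone 1 or bone 2 was left out, with an edgeR adjusted p of up to 0.112.

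Of 17 further Smads, co-repressors and degradation factors, edgeR called 1, a share close to the 5.84% of all genes. This was Smurf1, a ubiquitin ligase recruited by Smad7, at 0.185 to 0.201 CPM in Lin-named and 2.32 to 18.5 CPM in plus-named libraries (edgeR adjusted p = 0.0393). Smad4, the shared partner of receptor Smads, averaged 8.51 ± 5.33 CPM in Lin-named and 45.2 ± 26.6 CPM in plus-named libraries (SD, n = 3 and 5, edgeR adjusted p = 0.0737). DESeq2 called 5 of the 17, all lower, namely Smurf1, Smad4 (adjusted p = 0.00108), Smad6, Trim33 and the co-repressor Ski (adjusted p = 0.000240), beside 16.4% of genes called as lower. Smurf1 was also the 1 gene of the list that limma called. The edgeR call of Smurf1 was lost when any library except fibrous 1 was left out.

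Of 24 immediate target genes, 23 were tested in this comparison, and edgeR called 8 as lower and 0 as higher, beside 3.29% and 2.55% of all genes. Their median log2 fold change was −2.74, beside −0.23 over all genes. Snai2, a transcription factor of mesenchymal cells, was at 0.185 to 0.301 CPM in Lin-named and 23.5 to 136 CPM in plus-named libraries (edgeR adjusted p = 0.0121). Ccn1, a matricellular protein, averaged 21.5 ± 3.50 CPM in Lin-named and 379 ± 266 CPM in plus-named libraries (SD, n = 3 and 5), a log2 fold change of −4.16 (SE 0.61, edgeR adjusted p = 0.0198). Id1, Cdkn1a, Tsc22d1 and Adam12 fell too, as did Itgb5 and Ltbp2, which are counted in both lists. The count was 1 to 8 without a single library, with 1 without fibrous 3, bone 3 or bone 4, 2 without fibrous 2 or bone 1, 3 without bone 2 and 5 without fibrous 5, while DESeq2 called 14 of 24 as lower (16.4% of all genes) and limma 0 (4.05% of all genes). The libraries compared for these lists also differed in the stromal, osteoblast and erythroid marker sums given above. The part of these cells in the list results was not tested.

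**Figure D5:**
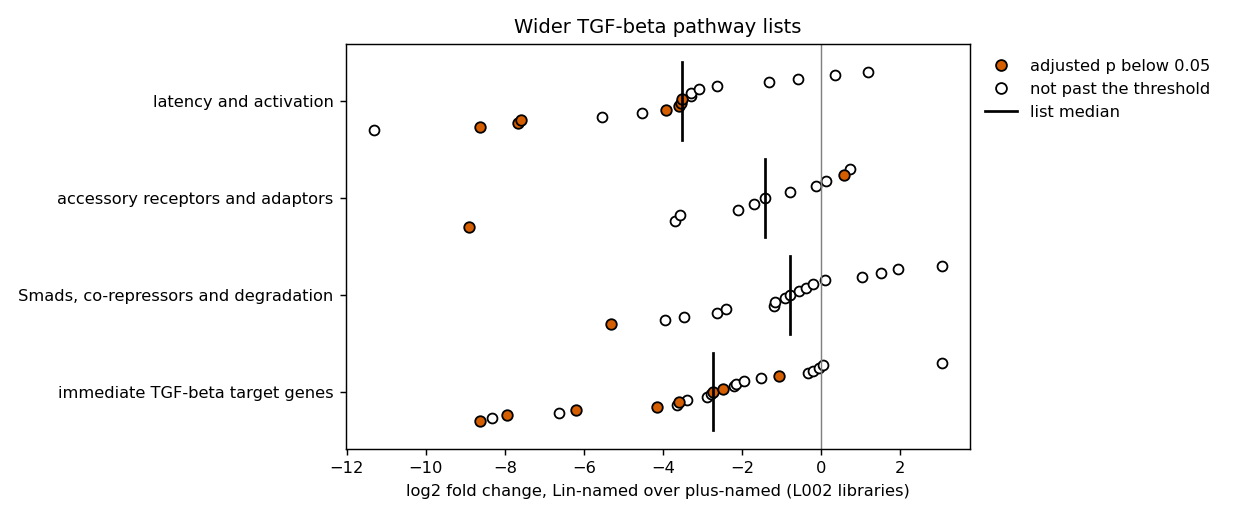
Each point is 1 gene of the 4 wider pathway lists, placed at its log2 fold change of Lin-named over plus-named L002 libraries, filled where the edgeR adjusted p was below 0.05, with a bar at the list median. The medians are at −3.53, −1.43, −0.78 and −2.74 from top to bottom, and 1 filled point, Strap at 0.58, lies above 0.

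Between fibrous and bone tissue, edgeR called 0 genes in each of these 4 lists, as it did over all genes. Fold changes above 0 were found for 14 of 18 latency genes and 18 of 20 tested target genes, with medians of 1.18 and 1.12, against 8 of 11 accessory genes and 10 of 17 Smads and co-repressors, with medians of 0.48 and 0.21. Over all genes 51.9% were above 0, with a median of 0.026. This fit held no term for the Lin token. The latency median was 1.18 with the 3-level name factor and 0.82 without the Lin-named libraries. Fbn1 averaged 32.4 ± 31.4 CPM in fibrous tissue and 3.94 ± 4.26 CPM in bone (SD, n = 7 and 6), a log2 fold change of 3.43 (SE 1.35, unadjusted p = 0.0247, adjusted p = 0.873 in edgeR). Bambi, a decoy receptor, averaged 72.0 ± 41.8 CPM in fibrous tissue and 35.4 ± 28.2 CPM in bone (SD, n = 7 and 6, edgeR adjusted p = 0.873). Both genes overlapped between the tissues. DESeq2 called 1 of 24 target genes and none of the other lists, beside 1.72% of all genes. It was the cell cycle inhibitor Cdkn2b (adjusted p = 0.0172), which averaged 1.84 ± 1.12 CPM in fibrous tissue and 0.129 ± 0.315 CPM in bone (SD, n = 7 and 6). Between the name series, Rnf111, a ubiquitin ligase that degrades Smad7 and the co-repressors Ski and Skil, was the 1 list gene that edgeR called, beside 2.16% of all genes, at 30.1 ± 10.3 CPM in XY9274 and 5.77 ± 3.35 CPM in L002 libraries (SD, n = 4 and 9). Its log2 fold change was 2.35 (SE 0.50, edgeR adjusted p = 0.0344), with an adjusted p of 0.0151 to 0.146 when 1 library was left out, highest without bone 5. The edgeR call of Rnf111 was lost without any one of fibrous 2, 3, 4, 5, 6 and 7 and bone 4, 5 and 6. DESeq2 called 3 of 20 latency genes (2 higher, 1 lower), 1 of 11 accessory genes, 2 of 17 Smads and co-repressors and 2 of 24 target genes, beside 15.1% of all genes, and limma called 3 of 18, 4 of 11, 5 of 17 and 7 of 20, beside 22.2%. Both called Rnf111.

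Genes with the most similar pattern were sought for each member among 12035 tested genes, by Spearman's rank correlation of normalised CPM over the 13 libraries, which share depth and cell make-up within a library. The nearest to Tgfb1 was Fnip1 (rho 0.945). The nearest to Tgfb2 were Tsc22d1 (rho 0.945), itself on the target list, and Htra1 (rho 0.940), a secreted protease. Tgfb3 was nearest to Kifc3 (rho 0.962), Tgfbr1 to Trp53inp1 (rho 0.934), Tgfbr2 to Elmo2 (rho 0.945) and Tgfbr3 to the complement gene C4b (rho 0.956). Smad3 was nearest to Mad1l1 (rho 0.951), Smad7 to Zfand2a (rho 0.918), Pmepa1 to Fxyd6 (rho 0.956) and Tgfbi to Golgb1 (rho 0.984). Each is the highest of many coefficients over 13 points and is given as a description, with no p.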

How the data were processed

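PolyA RNA was extracted with an RNeasy Plus Micro kit, made into Illumina TruSeq libraries and sequenced on a NovaSeq instrument, per the labels' protocols. The values are raw counts per gene, deposited by the authors as whole numbers for 23211 Ensembl IDs in 13 libraries. The submitters' processing notes name edgeR and the builds mm10 and hg38. The sources used here do not name the aligner, the counting tool or the strand setting.

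All IDs matched GENCODE M21 (mm10), which gave symbols, coordinates and the union of exons used for values per kilobase. The test was edgeR 4.0.16 in R 4.3.3 (TMM factors, filterByExpr, robust quasi-likelihood F test) over all genes passing the filter, with Benjamini-Hochberg adjustment and a threshold of 0.05. Tissue was tested with name series as a term over 13 libraries, and Lin-named against plus-named libraries with tissue as a term over the 9 of the L002 series. An interaction of series and tissue was also tested. The SE was taken as the absolute log2 fold change over the root of the F statistic. For genes near 0 counts in 1 group the fitted fold change depends on the prior count, so CPM are given. Normalised CPM are edgeR's, with the library size over tested genes scaled by TMM. DESeq2 1.42.0 (Wald test, no filter beyond 1 count) and limma 3.58.1 (voom, library quality weights) served as other tools, beside other filters, terms and subsets of libraries. The tests were also run on simulated data with a single dispersion for all genes, which these libraries need not share. No result is drawn from that. The root of edgeR's common dispersion was 0.904 in the tissue fit and 0.970 in the fit of Lin-named against plus-named libraries. Limits for a count of 0 use 3 counts and cover counting error only. Replicate numbers were given in accession order and pair no libraries. No 2 libraries looked like 1 library deposited again, since the least different of 36 within-tissue pairs had a chi-square of 89.8 per gene, and each library was counted once. This does not show that they came from separate animals. Promoters were those of RefSeq (GRCm38.p6), found for 6 of the 10 members.

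The members and lists were chosen with earlier results of these data known. Genes named were the 10 members, Lepr, Cxcl12 and Ptprc, members of 4 wider lists that passed a test or had the 3 smallest p-values of their list (the text gives a subset), and the 3 genes nearest to each member by Spearman's correlation (the text gives the first). Cell type lists are given as summed CPM.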

Additional observations from a re-analysis of the deposited data

Results flagged for a closer look

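Within each tissue, the gap between the most extreme library and its nearest neighbour was set against the whole range of log2 CPM for each member, with Dixon's 95% critical value, over 20 groups. Chance marks about 1 in 20 groups. The gap took 0.627 of the range for Tgfb2 in bone, where bone 6 had a count of 0, 0.631 for Tgfb3 in fibrous tissue, where fibrous 1 had a count of 0, and 0.672 for Smad3 in bone, where bone 3 had 1 count. All 3 were the lowest library of their group.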

How the results depend on the processing

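Between tissues, 0 of 10 members passed under any of 25 alternatives, and 0 genes passed except with DESeq2, which called 274. Refits of single members kept their sign in 227 cases and turned in 23. The Tgfb1 log2 fold change was −0.558 in XY9274 alone. That of Tgfbr1 was −0.142 with limma, −0.419 with no name series term, −0.579 with a 3-level name factor, −0.0987 without the Lin-named libraries, −1.08 without libraries low in Lepr and −0.382 in XY9274 alone. Tgfbr3 was at −0.0295 with the 3-level factor and −0.0200 with leukocyte and erythroid scores as terms. Smad3 was at −0.353 without the Lin-named libraries and −0.183 without those low in Lepr, and Tgfbi at 0.759 with limma and 0.187 without libraries low in Lepr. With 1 library left out, Tgfbr1 ran from −1.17 to 1.21, Smad3 from −0.214 to 0.502 and Tgfbi from −0.850 to 0.366.

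For Lin-named against plus-named libraries, DESeq2 called 3929 genes and 5 members, and Lin-named against all other L002 libraries gave 354 genes, beside 981 genes and 0 members. With 1 library left out the count was 90 (without fibrous 3) to 1097 genes and 0 to 2 members, and it was 91 without bone 3, 132 without bone 4, 232 without fibrous 2, 237 without bone 1 and 249 without bone 2. Tgfb1 then ran from −0.048 to 0.231 and Smad7 from −0.291 to 2.18. For XY9274 against L002, beside 287 genes, DESeq2 called 2410 and limma 2946, and leaving out 1 library gave 87 (without fibrous 6) to 470 (without bone 1). DESeq2 called 70 genes in the interaction, beside 0. The cause of these differences was not tested. A paired fit, chosen after seeing the data, used the 4 L002 libraries in 2 pairs whose names share a further token, with the pair as a replicate block and 1 residual degree of freedom. In edgeR it called 15 genes and 0 of 9 tested members and gave Smad7 a log2 fold change of −1.19. Libraries of different name series that share a number were not paired. The labels do not say that a shared token marks a shared source.

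Counts of 0 to 2 in single libraries limit Tgfb2, Tgfb3, Tgfbr1, Smad3, Smad7 and Pmepa1, where a fold change follows the prior count. With 3 Lin-named libraries, 1 of them fibrous, tissue and token are unevenly crossed.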
